A study of Homo sapiens with 18 samples.

Results

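7SK RNA is encoded by RN7SK on chromosome 6, and the human genome holds many further sequences derived from it. Members were the features of the deposited table whose name contained RN7SK or began with 7SK_ and whose length was at most 500 bases. They numbered 52 of 175935 features, namely the RN7SK gene and 51 copies, and the gene was kept apart from the copies throughout. The libraries were small RNA libraries of HEK293T cells, a human embryonic kidney cell line, made 48 h after RNAiMAX transfection with either a scramble siRNA (control) or an siRNA against SSB (siSSB). SSB encodes La, a chaperone of RNA polymerase III (Pol III) transcripts. Whole-cell RNA (total), nuclear RNA (nuc) and cytoplasmic RNA (cyto) of each were sequenced from 3 replicates, which gave 6 groups and 18 libraries. All libraries carried the label Plus_PNK, so every group shared that step, and a transient knockdown in a single transformed line is what the groups model.

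7SK is a small nuclear RNA made by Pol III from a promoter that lies wholly upstream of the gene. It forms the scaffold of a particle in which HEXIM proteins hold the kinase P-TEFb, made of CDK9 and cyclin T, in an inactive state, and release of P-TEFb lets paused RNA polymerase II move into productive elongation. MEPCE caps the 5′ end of 7SK, LARP7, a La-related protein, holds its 3′ oligo(U) end, and La itself binds the 3′ ends of new Pol III transcripts. In most cells 7SK is known as a nuclear RNA.

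RN7SK lies on the plus strand at chr6:52995621-52995948 (hg38) and spans 328 bases in GENCODE, and the table's row extends 25 bases beyond it at each end. The sequences that follow are the 5′ end, whose GATC motifs (capitals) are the known HEXIM-binding signature of 7SK, the middle stretch that a chromosome 22 copy shares without a mismatch, and the 3′ end with its run of T (capitals), whose first T is the last base of the annotated gene. The last line gives the 40 bases upstream, which carry the TATATA element (capitals) of the promoter. GATC occurred 3 times in the gene, at bases 12, 41 and 63.
RN7SK bases 1 to 100 (chr6:52995621-52995720, +): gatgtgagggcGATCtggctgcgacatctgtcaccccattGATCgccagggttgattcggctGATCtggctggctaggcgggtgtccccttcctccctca
RN7SK bases 134 to 261 (chr6:52995754-52995881, +): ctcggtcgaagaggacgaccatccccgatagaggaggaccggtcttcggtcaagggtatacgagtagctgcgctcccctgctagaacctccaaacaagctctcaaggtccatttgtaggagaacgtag
RN7SK bases 233 to 328 and the next 3 bases (chr6:52995853-52995951, +): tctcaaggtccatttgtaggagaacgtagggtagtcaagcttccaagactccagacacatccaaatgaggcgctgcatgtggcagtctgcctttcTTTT
RN7SK upstream (chr6:52995581-52995620, +): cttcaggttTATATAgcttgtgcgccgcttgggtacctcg

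Among the copies named 7SK, only the one on chromosome 5, 7SK_snRNA_URS0000712FCB, gathered more than 100 counts over the 18 libraries. Its annotated sequence, at chr5:165609963-165610091 on the plus strand, aligned to RN7SK bases 200 to 328 with 80.0% identity, and its longest run identical to the gene was 40 bases (263 to 302). The corresponding 3′ stretch is shown for this copy and for a pair of further 7SK copies that the table lists under long noncoding RNA names, lnc-ARHGAP24-4 and lnc-EFCAB2-4. Bases that differ from RN7SK or are inserted are in capitals, and bases missing from a copy are not marked.
7SK_snRNA_URS0000712FCB (chr5:165609996-165610091, +): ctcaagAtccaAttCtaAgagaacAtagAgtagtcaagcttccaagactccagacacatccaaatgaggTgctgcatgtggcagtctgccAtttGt
lnc-ARHGAP24-4 (chr4:85100728-85100823, +): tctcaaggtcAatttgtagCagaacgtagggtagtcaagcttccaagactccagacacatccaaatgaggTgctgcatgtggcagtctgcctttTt
lnc-EFCAB2-4 (chr1:244944119-244944214, +): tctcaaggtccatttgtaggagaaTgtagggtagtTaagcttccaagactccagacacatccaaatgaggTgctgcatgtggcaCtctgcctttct

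How far a read can be assigned to the gene depends on this likeness. Every one of the 309 stretches of 20 bases (20-mers) in RN7SK also occurred elsewhere in hg38. The number of other exact matches ranged from 1 to 67, with a median of 9, and 21 of the 20-mers had a single other match. The median was 20 for 20-mers that begin at bases 1 to 103, 7 for those that begin at bases 104 to 206 and 4 for those that begin at bases 207 to 309. The 3′ part thus had the lowest median, although the 20-mer with the most matches began at base 214 within it. How reads with several positions were treated is not given in the sources used here.

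**Figure D1:**
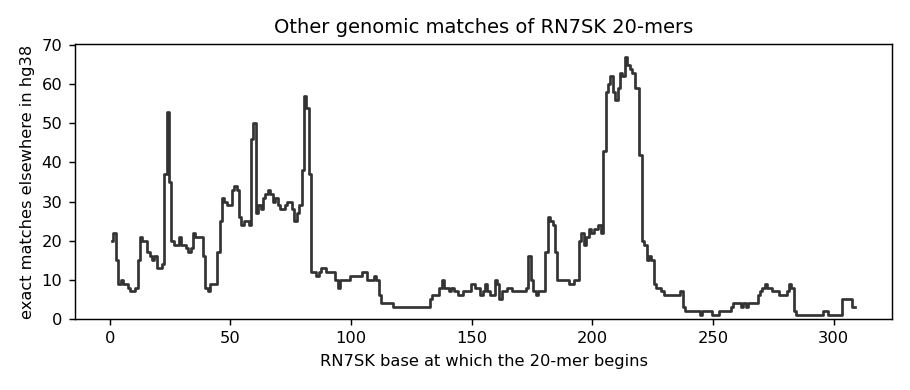
Exact matches of each RN7SK 20-mer elsewhere in hg38 (vertical axis, number of matches on either strand) against the RN7SK base at which the 20-mer begins (horizontal axis). All 309 have at least 1 other match, the peak of 67 lies at base 214, and the median falls from 20 for starts up to base 103 to 4 from base 207 on.

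The depth and the fractions bear on all values below. Counts in distinct features of at most 500 bases (short features) totalled 2471886 to 7971280 per library, and a floor of 3 counts was 0.376 to 1.21 per 1000000 short-feature counts. The total count of all features, which counts a read in each feature it overlaps, ran from 21565995 to 158244813. snoRNAs made up 7.90% to 11.7% of the short-feature counts in the 6 cyto libraries and 75.9% to 82.5% in the 6 nuc libraries, whereas tRNAs made up 19.8% to 29.6% and 0.806% to 0.998%. Set against the same total, the nuclear long noncoding RNAs MALAT1 and NEAT1 were lower in nuc. MALAT1 came to 0.0136% to 0.0230% in cyto and 0.0018% to 0.0062% in nuc libraries, and NEAT1 to 0.0150% to 0.0205% and 0.0032% to 0.0075%. In nuc, snoRNAs swell that total. With it the median of all features was also lower in nuc, at a log2 fold change of -3.15 in control cells. The nuclear SNORD13 went with the labels, at 0.0023% to 0.0035% in cyto and 0.0538% to 0.0812% in nuc. RN7SL1, a cytoplasmic RNA, was higher in nuc with another scaling, as given below. Among the nuc libraries, control replicate 3 and siSSB replicate 2 stood apart in 7SL RNA, with 4260 and 5016 RN7SL1 counts against 982 to 1376 in the other 4. The level of SSB itself was not analysed here. The feature HSALNG0020274 over the SSB gene held 25 to 32 counts in control cyto and 983 to 3304 in siSSB cyto, and 12 to 19 in control total against 547 to 1267 in siSSB total. In nuc the ranges overlapped, with 1 to 5 counts in control and 5 to 14 in siSSB libraries. The feature was thus higher in the cyto and total libraries labelled siSSB. These are small RNA counts of cells given an siRNA against SSB, and they do not give the level of the SSB transcript. Whether reads of the siRNA itself entered the feature was not tested, and the counts cannot show whether SSB fell.

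RN7SK had at least 1271 counts in every library and was most abundant in the cytoplasmic ones. In control cells, replicates 1, 2 and 3 held 13372, 8644 and 19719 counts in cyto, 1669, 1530 and 1272 in nuc and 3751, 4547 and 5284 in total RNA. In siSSB cells they held 11129, 11568 and 13256 counts in cyto, 1371, 1700 and 1271 in nuc and 5264, 5068 and 4141 in total RNA. All 6 cyto libraries were above all total libraries, and all total libraries were above all nuc libraries, in either kind of cell. Scaled per 1000000 short-feature counts, the control means were 3970 ± 554 in cyto, 221 ± 11.2 in nuc and 891 ± 277 in total (SD, n = 3). The siSSB means were 3980 ± 633, 255 ± 57.0 and 1251 ± 325, and each siSSB range overlapped that of its control. A lower count of a feature in a fraction may reflect fewer molecules or a larger amount of other RNA in the library, and the counts cannot tell these apart.

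**Figure D2:**
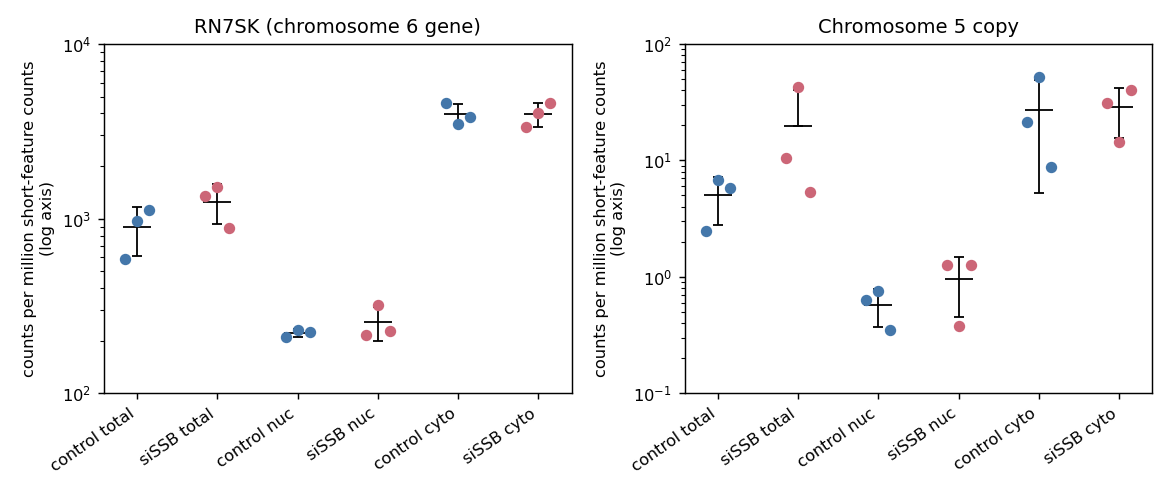
Counts per 1000000 short-feature counts (log axis) of RN7SK (left) and of the chromosome 5 copy (right) in each library, by group. Points are libraries, bars the mean with its SD (n = 3), and the lower bar is left out where the SD exceeds the mean. For RN7SK the 6 nuc libraries lie between 209 and 321, the 6 total libraries between 584 and 1516 and the 6 cyto libraries between 3337 and 4602; the copy shows the same order of the group means with a wider spread, and its siSSB total and siSSB cyto libraries overlap.

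Comparison of nucleus with cytoplasm asked where the RNA was counted. In control cells RN7SK was lower in nuc than in cyto, at 46.8 ± 2.01 against 108.8 ± 22.1 CPM (counts per 1000000 counts after TMM scaling; SD, n = 3), a log2 fold change of -1.22 ± 0.29 (SE; edgeR quasi-likelihood test, adjusted p = 0.00143). In siSSB cells it was 49.3 ± 0.920 against 118.7 ± 21.9 CPM, a log2 fold change of -1.27 ± 0.29 (edgeR, adjusted p = 0.00125). The CPM ranges did not overlap in either kind of cell. Of all features tested, 23.3% passed the test in control cells and 25.3% in siSSB cells, 14.1% and 14.5% in the lower direction. The size of the fold depended on the scaling, which also moved the median of all features: with library size alone RN7SK had -5.37 and the median feature -4.33 in control cells, and with TMM these were -1.22 and -0.27. Relative to the median feature, RN7SK lay at -0.94 in control and -1.07 in siSSB cells with TMM, and between -1.23 and -0.49 and between -1.37 and -0.72 over all settings tried. Against the short-feature total, MALAT1 and NEAT1, above, were lower in nuc than in cyto, as RN7SK was. On the TMM scale used here NEAT1 did not go with RN7SK. In control replicate 1 it had 257 counts in nuc and 450 in cyto, at TMM-scaled library sizes of 36241600 and 109988000. The part of the fractionation or of the short-read protocol in these values was not tested.

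Ratios within a library need no scaling. RMRP, the RNA of the mitochondrial RNA processing ribonuclease and like 7SK a Pol III RNA with an upstream promoter, was counted at a similar order. Control cells had 4.07, 3.69 and 3.72 RN7SK counts per RMRP count in cyto, 0.569, 0.662 and 0.227 in nuc and 1.11, 1.36 and 1.25 in total RNA. In siSSB cells they were 3.51, 3.12 and 3.47 in cyto, 0.454, 0.210 and 0.483 in nuc and 1.39, 0.806 and 1.25 in total RNA. The ratio was thus 7.88 times as high in cyto as in nuc in control cells and 8.80 times in siSSB cells, with no overlap. The lowest nuc ratios, 0.227 and 0.210, raised these folds. They came from control replicate 3 and siSSB replicate 2, which stood apart in 7SL RNA above. Both were also low in RN7SK per RPPH1 count, at 0.531 and 0.499 against 1.27 to 1.68 in the other nuc libraries. Against RNY1, a Y RNA of the cytoplasm bound by Ro60 and La, the order was the other way round: RN7SK per RNY1 averaged 0.180 ± 0.0249 in control cyto and 1.40 ± 0.508 in control nuc (SD, n = 3). RN7SK thus leaned towards the cytoplasmic libraries relative to RMRP and towards the nuclear ones relative to RNY1.

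The knockdown of SSB was compared in each fraction to see whether 7SK responds to loss of La. In total RNA, RN7SK was at 70.3 ± 13.3 CPM in siSSB and 71.4 ± 5.78 CPM in control cells (SD, n = 3), a log2 fold change of -0.02 ± 0.28 (95% interval -0.64 to 0.59; edgeR, adjusted p = 0.985). In nuclear RNA it was 11.6 ± 0.744 against 12.5 ± 0.730 CPM, a log2 fold change of -0.11 ± 0.26 (-0.67 to 0.45; edgeR, adjusted p = 0.885). In cytoplasmic RNA it was 418.1 ± 58.5 against 491.5 ± 91.2 CPM, a log2 fold change of -0.23 ± 0.26 (-0.81 to 0.34; edgeR, adjusted p = 0.919). RN7SK passed the test in none of these 3 comparisons. Of all features tested, 1.34% passed in total, 0.378% in nuclear and 0.291% in cytoplasmic RNA. The intervals leave room for a change of either sign in total RNA, and the sign of the estimate there turned with the scaling (0.50 with library size alone, where the median feature was at 0.55). The difference between the nuclear and the cytoplasmic knockdown effect was -0.03 ± 0.40 (-0.85 to 0.78; edgeR interaction, adjusted p = 1), where 0.0133% of features passed. The comparisons share libraries, since each control and siSSB fraction enters both a knockdown and a fraction comparison.

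**Figure D3:**
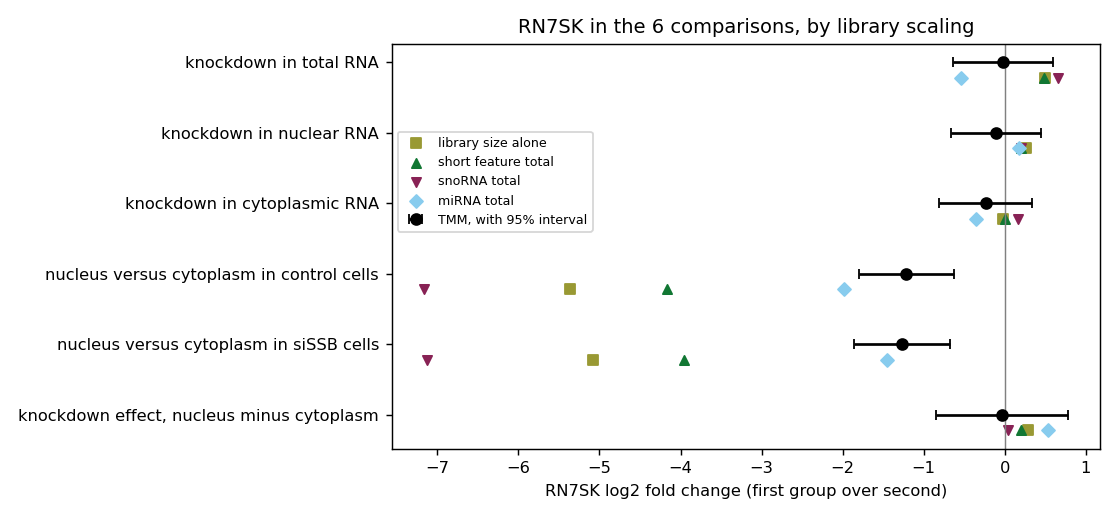
Log2 fold change of RN7SK (horizontal axis) in the 6 comparisons (rows). Black points with bars are the edgeR estimates with TMM scaling and their 95% intervals, and coloured marks the estimates with 4 other scalings; the 3 knockdown estimates lie between -0.53 and 0.66 with these scalings, and both fraction estimates lie below 0 with TMM and with the 4 scalings drawn, from -7.17 to -1.22.

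For the other La-bound or upstream-promoter Pol III RNAs (a list of 18 names, 16 of which had 22 features in the table), vault RNAs were the ones called with TMM. In total RNA 3 of 20 tested features fell with siSSB and 0 rose: VTRNA1-1 had a log2 fold change of -2.25 ± 0.34 (edgeR, adjusted p = 0.0128), VTRNA1-2 of -2.58 ± 0.38 (0.0123) and VTRNA1-3 of -1.67 ± 0.37 (0.0491). VTRNA1-3 no longer passed with library size alone (adjusted p = 0.149). In nuclear and in cytoplasmic RNA 2 of 20 fell, VTRNA1-1 and VTRNA1-2 both times, and none rose. Of all features tested, 0.972%, 0.349% and 0.27% fell in total, nuclear and cytoplasmic RNA. These counts moved with the setting, as did those over all 13883, 6873 and 18921 features tested in total, nuclear and cytoplasmic RNA. With library size alone 2, 0 and 1 of the 20 fell, beside 88, 0 and 9 of all. With the miRNA total 13, 0 and 2 fell, beside 2117, 16 and 105 of all. In total RNA further features than the vault RNAs were thus called, where the median feature was at -0.52. With the snoRNA total 2, 0 and 0 fell, beside 49, 0 and 0 of all. With the replicate block 3, 2 and 0 fell, beside 162, 29 and 0 of all. The list's median was -0.52 in total RNA, -0.59 in nuclear and -0.05 in cytoplasmic RNA, beside -0.01, 0.08 and 0.01 for all features tested. Many features of the list were U6 ones, so these medians weigh that RNA many times. Vault RNAs are short components of the vault particle, and RN7SK was not among the features called under any of these settings.

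In the fraction comparisons 13 of 21 tested features of that list were higher in nuc and 6 lower, in control and in siSSB cells alike, beside 9.21% and 10.8% of all features tested that were higher. Most of the 13 were U6 features, so the count does not stand for 13 separate RNAs. Those higher included RMRP (log2 fold change 2.06 ± 0.34 in control cells), RPPH1, the RNA of ribonuclease P (2.09 ± 0.36), RN7SL1, the signal recognition particle RNA (3.05 ± 0.42), and U6 features (2.85 to 3.85). Those lower included RNY1 (-4.01 ± 0.34) and VTRNA1-2 (-2.87 ± 0.33), so RN7SK at -1.22 had the sign of the Y RNAs and of VTRNA1-1 and VTRNA1-2. VTRNA1-3 was at 0.15 ± 0.35 (edgeR, adjusted p = 0.802). These signs hold for TMM. With library size alone none of the 21 was higher and 15 were lower in control cells, beside 25770 of all 26774 features tested that were lower. RMRP was among the 15 at -2.06, above the median feature at -4.33, while RNY1 and RN7SK were lower under both scalings. No feature in the table bore the name of a protein gene of the 7SK particle (0 of 7: LARP7, MEPCE, HEXIM1, HEXIM2, CDK9, CCNT1, CCNT2).

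The copies were counted far less than the gene. Of the 51 copies, which lay on 19 chromosomes and of which 25 coincided with a GENCODE 7SK pseudogene, 31 had 0 counts in all 18 libraries. A count of 0 allows up to 3 counts, or 0.376 to 1.21 per 1000000 short-feature counts per library, so lower levels were not detectable at this depth. Of the 20 with a count, 12 had 1 to 9 counts over all libraries, 7 had 10 to 100 and the chromosome 5 copy had 812. The members formed 22 distinct patterns of counts, and no member overlapped another. Together the copies of control cells gave 3.50 to 16.3 counts per 1000 RN7SK counts in cyto, 3.14 to 6.59 in nuc and 7.20 to 9.68 in total RNA. In siSSB cells they gave 6.05 to 11.3, 2.94 to 8.65 and 9.66 to 32.8, the last value from total replicate 2.

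The copies with a count shared longer stretches with the gene. Identity to RN7SK over the aligned part was 53.8% to 83.2% (median 67.0%) and the longest identical run 7 to 40 bases (median 17). The median run was 26.5 bases in the 20 copies with a count and 13 in the 31 without. Of the 21 copies that share at least 1 20-mer with the gene, 16 had a count, and of the 30 that share none, 4 did. The rank correlation of longest run with mean count over the 51 copies was 0.739, and that of identity with mean count 0.532, as a description of features that share reads. After the chromosome 5 copy came 7SK_snRNA_URS000072969D (RN7SKP98) at chr1:212099465-212099701 on the minus strand, with 67 counts and a run of 40 bases (205 to 244), and 7SK_snRNA_URS00006C9218 at chr17:36682202-36682509, with 57 counts and a run of 28 bases (62 to 89). The next, with 20, 19, 13, 12 and 10 counts, were 7SK_snRNA_URS000069DB40 on chromosome 8, 7SK_snRNA_URS000072D739 on chromosome 1, 7SK_snRNA_URS00006F7724 on chromosome 20, 7SK_snRNA_URS0000674F57 on chromosome 11 and 7SK_snRNA_URS00006C7CBA on chromosome 3. The other 12 had at most 8 counts each over the 18 libraries.

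Promoter and terminator motifs of the gene stood at few copies. TATATA, searched on the strand of each locus, stood in the 40 bases upstream of 2 of 51 copies (3.92%), 7SK_snRNA_URS000065391D and 7SK_snRNA_URS00006DE769, with 7 counts each over all libraries. Of 35116 RefSeq promoters, 1.09% held it in the same 40 bases. A run of TTTT in the 16 bases around the annotated end stood at RN7SK and at 8 of 51 copies (15.7%), beside 5.6% of equally long windows before the start of RefSeq genes. The chromosome 5 copy had neither, and no match says only that these letters were not in these windows.

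**Figure D4:**
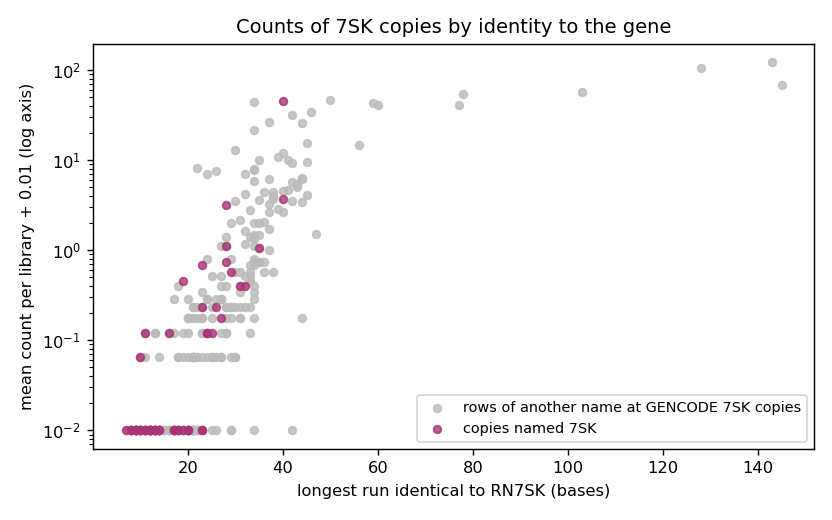
Mean count per library plus 0.01 (log axis) of the 51 copies named 7SK (purple) and of 282 features of another name at GENCODE 7SK copies (grey) against the longest run identical to RN7SK in bases. The lowest row of points is at 0 counts; among the copies named 7SK the chromosome 5 copy at 40 bases stands highest with a mean of 45.1, and features with runs over 100 bases, all of other names, have means of 57.4 to 120.8.

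In control cells the chromosome 5 copy held 63, 128 and 45 counts in cyto, 5, 5 and 2 in nuc and 16, 32 and 27 in total RNA. In siSSB cells it held 104, 42 and 116 in cyto, 8, 2 and 7 in nuc and 41, 144 and 25 in total RNA. Every nuc library was below every cyto and every total library. A second copy just upstream on chromosome 5, 7SK_snRNA_URS00007288AA (RN7SKP60, chr5:165609441-165609743), which shares no 20-mer with the gene, was at 0 in all 18. The counted copy passed the filter on low counts in the fraction comparisons only through its cyto libraries, and some of its nuc counts were at or under the floor of 3. Its difference between the fractions is therefore read from these counts alone, and from no fitted fold or test. The same holds for 7SK_snRNA_URS000072969D, with 5, 7 and 10 counts in siSSB cyto and 1, 1 and 2 in siSSB nuc. The difference of the knockdown effect between fractions rests on the same low nuc counts for the 3 copies that entered it. No fold and no test outcome are therefore read from it either.

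With siSSB, the copy stood at 0.928 ± 0.708 CPM against 0.393 ± 0.115 in total RNA (SD, n = 3), a log2 fold change of 1.26 ± 0.46 that did not pass the test (95% interval 0.25 to 2.26; edgeR, adjusted p = 0.192). It passed under 4 of 15 alternatives, at 1.19 to 2.22, with adjusted p of 0.0111 to 0.623 over the 15 (edgeR or DESeq2). The 144 counts of siSSB total replicate 2 set much of this, and without that library the value was 0.51. The same library had the highest share of miRNA counts of the 6 total libraries (4.25% against 1.12% to 2.46%) and of mitochondrial tRNA (1.81% against 1.01% to 1.34%), whose part in the result was not tested. In cytoplasmic RNA the copy was at -0.06 ± 0.51 (-1.21 to 1.09; edgeR, adjusted p = 0.994), and in nuclear RNA its counts were too low to pass the filter. RN7SK had 5068 counts in that library, between those of the other siSSB total libraries, but per 1000000 short-feature counts it too was highest there among the 6 total libraries, at 1516 against 584 to 1350.

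Per 1000 RN7SK counts the copy varied widely within groups. Control cells gave 4.71, 14.8 and 2.28 in cyto, 3.0, 3.27 and 1.57 in nuc and 4.27, 7.04 and 5.11 in total RNA. In siSSB cells the values were 9.35, 3.63 and 8.75 in cyto, 5.84, 1.18 and 5.51 in nuc and 7.79, 28.4 and 6.04 in total RNA. The group ranges overlapped between nuc and cyto in either kind of cell, so a difference of the copy from the gene between fractions was not separated from the spread between libraries. The copy lies inside long noncoding RNA features, and its counts also entered these: AC008415.1 held 949 counts over all libraries, of which 85.56% would be those of the copy, and lnc-MAT2B-3 held 1373, of which 59.14% would be. The strand setting of the counting is not given, so reads from either strand cannot be told apart.

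Over the 18 libraries, the features whose log2 level per 1000000 short-feature counts was most like that of the chromosome 5 copy were lnc-STAC-2 (Pearson r 0.991), lnc-KLHL20-3 (0.987), lnc-ARHGAP24-4 (0.985) and lnc-EFCAB2-4 (0.980), out of 1497 features with a mean of at least 20 counts. All 4 are GENCODE 7SK pseudogenes under another name (RN7SKP227, RN7SKP160, RN7SKP48 and RN7SKP55). In lnc-STAC-2, for example, control cells gave 55, 75 and 31 counts in cyto, 4, 2 and 0 in nuc and 8, 24 and 21 in total RNA, and siSSB total libraries gave 25, 96 and 17. The high value of siSSB total replicate 2 was thus seen in it too. RN7SK itself was most like ENSPTRG00000042629.1 on chromosome 1 and MT-TT, a mitochondrial tRNA (r 0.985 for both), and none of the 10 features most like it was a 7SK copy. The libraries share their fraction and depth, which enter all of these correlations.

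The naming rule left out most 7SK copies of the table. A further 282 features, at 279 loci that GENCODE names as 7SK pseudogenes, had other names, and 176 of them had a count and 22 a mean of at least 10. They were set beside the members as a comparison and not tested. Their identity to RN7SK was 52.9% to 94.0% (median 75.85%), their longest identical run 7 to 145 bases, and the rank correlation of run with mean count was 0.856 over the 282. TATATA stood upstream of 8 of them (2.84%) and TTTT at the end of 57 (20.2%). Per 1000 RN7SK counts their sum in control cells was 78.9 to 141.6 in cyto, 239.1 to 363.2 in nuc and 212.7 to 252.5 in total RNA. In siSSB cells it was 126.4 to 148.3, 311.2 to 344.6 and 249.4 to 394.4. Relative to the gene the sum of these copies was therefore higher in nuc than in cyto, with no overlap of the ranges. A few features held much of it. Over the control nuc libraries lnc-LRRTM4-6 and lnc-POLDIP3-2 had 336 counts each and lnc-TRAFD1-4 126, where the whole sum was 399, 455 and 462 per library. The sum without these features was not computed. With all copies added to the gene, the sum per 1000000 short-feature counts averaged 4397 ± 519 in control cyto and 289 ± 24.6 in control nuc (SD, n = 3), 15.2 times lower in nuc.

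Copies differed in their counts in nuc and cyto relative to the gene, and the part of RN7SK they share is given beside these. lnc-LRRTM4-6 (RN7SKP203, chr2:76445079-76445410, minus strand), with a run of 143 bases (33 to 175) identical to the gene, held 66, 75 and 194 counts in control cyto and 82, 120 and 134 in control nuc, although the gene was 9.33 times lower in nuc by its raw counts. Per 1000 RN7SK counts it was at 7.82 ± 2.56 in cyto and 77.6 ± 28.1 in nuc (SD, n = 3). lnc-POLDIP3-2 (RN7SKP80, chr22:42565048-42565330, minus strand) is 94.0% identical to RN7SK over bases 1 to 283, and its longest run is the stretch of bases 134 to 261 printed above. It held 63, 49 and 82 counts in control cyto and 112, 107 and 117 in control nuc, 64, 134 and 93 in siSSB cyto and 116, 144 and 114 in siSSB nuc. Per RN7SK count it was 16.2 times higher in nuc than in cyto in control and 10.6 times in siSSB cells. lnc-EFCAB2-4, printed above by its 3′ part, had 123 counts in control cyto and 0 in control nuc.

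The position of the shared stretch ran with the difference between nuc and cyto. Of 23 copies with a mean of at least 10 counts, the chromosome 5 copy included, 15 shared no 20-mer that begins at base 250 or later, a position chosen after the values were seen. Their log2 ratio of nuc to cyto, per RN7SK count, had a median of 0.80 (-0.50 to 4.01) in control and 0.78 (-0.90 to 3.41) in siSSB cells, and it was above 0 in 12 and 10 of the 15. The 8 copies whose shared 20-mers reach base 250 or later had medians of -1.31 (-2.13 to 0.87) and -1.88 (-2.72 to 0.75), and 7 of 8 lay below 0 in both kinds of cell. Group ranges did not overlap for 9 of the 15 in control cells, all 9 higher in nuc, and for 2 of the 8, 1 in each direction. In siSSB cells they did not overlap for 8 of the 15, 7 higher and 1 lower in nuc, and for 4 of the 8, all 4 lower. The share of all features with ranges apart on this scale was not computed, so these counts have no background to be read against. Some rest on few nuc counts, such as 0 for lnc-EFCAB2-4 in control nuc and 5 for lnc-KLHL20-3 in siSSB nuc. The copies share reads with one another and with the gene, so they are not independent points, and no test was made.

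**Figure D5:**
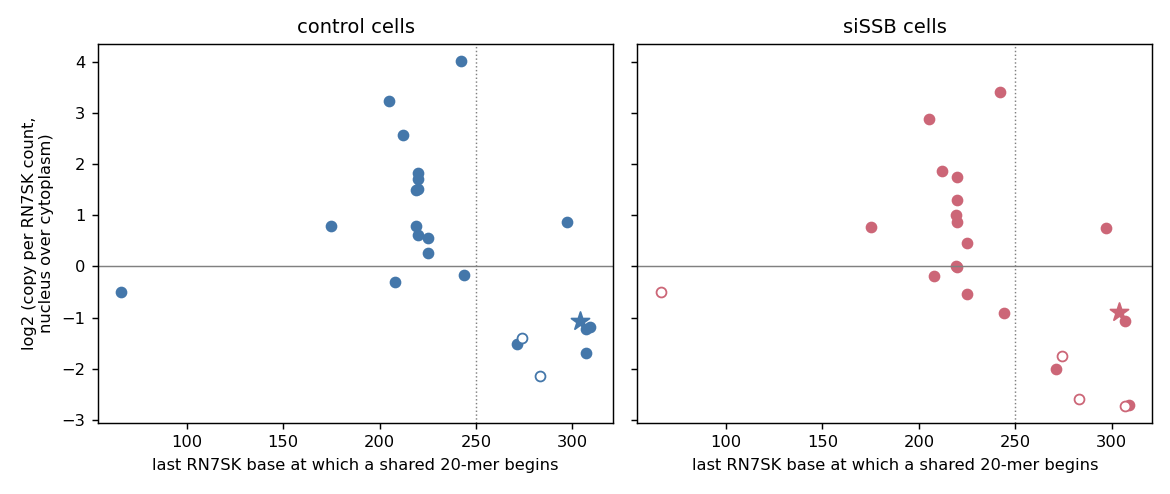
Log2 ratio of nuc to cyto of each copy's counts per RN7SK count (vertical axis) against the last RN7SK base at which a shared 20-mer begins (horizontal axis), for 23 copies with a mean of at least 10 counts in control cells (left) and siSSB cells (right). The star is the chromosome 5 copy, circles are features of other names, open symbols have a nuclear count at or under the floor of 3 and are bounds, and the dotted line marks base 250; copies ending before it have medians of 0.80 and 0.78, those beyond it -1.31 and -1.88.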

How the data were processed

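The authors deposited raw counts of reads per RNAcentral feature in 1 table for all 18 libraries (hg38), with no normalization. The submitters' processing notes name Bowtie2 and bedtools. The study also lists TrimGalore, and versions of all 3 tools, for its eCLIP-seq and RNA-seq together, and does not say which apply to these small RNA libraries. Their strand setting and the handling of reads with several positions are not given in the sources used here. Libraries were made with the NEBNext small RNA kit after RNA isolation with the mirVana PARIS kit. Groups and replicates came from the sample titles. The members and lists were chosen with earlier results of these data known. Counts were tested over the whole table with edgeR 4.0.16 (glmQLFit, glmQLFTest, filterByExpr, TMM; R 4.3.3, limma 3.58.1), each pair of groups on its own 6 libraries and the interaction on 12, with Benjamini-Hochberg adjusted p under 0.05 as the threshold. DESeq2 1.42.0 was an alternative. The series describes the replicates as biological. Sequences and positions came from hg38 and GENCODE v44, read in Python 3.11.15 with Biopython 1.88 alignment; promoters came from RefSeq. A copy coincided with a pseudogene where they overlapped by at least 50% both ways on the same strand. Without molecular identifiers, floors of 3 counts cover counting error only. Named were RN7SK, the copies by mean count and up to 4 examples of the Pol III list; features of other names were chosen after their values were seen. The fits were tested on simulated data. Alternatives were other scalings, filters, DESeq2, a replicate block and each library left out.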

Additional observations from a re-analysis of the deposited data

How the results depend on the processing

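RN7SK was lower in nuc than in cyto, and past the threshold, under all 16 alternatives in control cells (-7.17 to -1.17) and all 16 in siSSB cells (-7.13 to -0.92). RN7SK passed in no knockdown comparison or interaction under any alternative, but its sign turned. In total RNA it was 0.50 with library size alone, 0.49 with the short-feature total, 0.66 with the snoRNA total, 0.17 with a mean of at least 50 counts and 0.012 with identical features once, and -0.16 to 0.17 with 1 library left out. In nuclear RNA these were 0.26, 0.20, 0.20 and 0.072 (the mean filter), 0.18 with the miRNA total, and -0.19 to -0.07 with 1 library left out. In cytoplasmic RNA it was 0.003 with the short-feature total and 0.16 with the snoRNA total, and -0.39 to -0.10 with 1 library left out. The interaction was 0.29, 0.20, 0.036 and 0.54 with library size alone, the short-feature total, the snoRNA total and the miRNA total, and -0.19 to 0.15 with 1 library left out. The scalings moved the median feature by nearly as much. The chromosome 5 copy passed in total RNA with library size alone (1.99), the short-feature total (1.97), the snoRNA total (2.22) and no filter (1.19), where 1 copy passed in place of 0, and lay at 0.51 to 1.61 with 1 library left out. In cytoplasmic RNA it was 0.084 with library size alone, 0.0 with DESeq2 size factors, 0.10 with the short-feature total, 0.22 with the snoRNA total, 0.026 with the mean filter and 0.10 with the replicate block, and -0.40 to 0.66 with 1 library left out; its interaction was -0.33 to 0.84. In nuc against cyto of siSSB cells, 2 copies passed in place of 1 with library size alone, the short-feature total and the snoRNA total, but copies passed the filter there only through cyto, so these counts support nothing. Same-numbered libraries showed no steady likeness, with correlations of their deviations from the group means of -0.57 to 0.30. In nuc against cyto of control cells all were positive, at 0.085 to 0.160. Such values cannot tell whether same-numbered libraries came from 1 culture. The replicate block changed no call of RN7SK or a copy. The cause of these turns was not tested. With under 10 counts in nuc, the copies' depth limits what the fractions can show, and a mean of at least 50 counts left no copy in some comparisons.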
